A study of Mus musculus with 8 samples.

Results

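The long noncoding RNAs described here are RNAs of the nucleus and host genes of small RNAs: Malat1, Neat1, Gas5, Snhg1, Snhg3, Snhg5, Snhg8, Snhg12, Kcnq1ot1 and Mir155hg. They were taken by gene name from a table of gene counts, in which 5 of the 10 names, Malat1, Neat1, Snhg12, Kcnq1ot1 and Mir155hg, matched a row among 31053. Gas5, Snhg1, Snhg3, Snhg5 and Snhg8 matched none and were not analysed here. The annotation GENCODE M21 files these 5 under processed transcripts, a class in which 10 of 790 genes matched a row, against 5459 of 5854 genes of the lincRNA class. The snoRNA host genes of the set are therefore represented by Snhg12 alone.

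The cells were mouse splenic conventional dendritic cells (cDCs), which take up antigen and prime T cells. Spleen cells enriched to about 20% dendritic cells were kept for 9 h with 100 nM CpG-B, a DNA ligand of Toll-like receptor 9, before lineage-negative cells with MHC class II and CD11c were sorted for RNA-seq. All 8 libraries came from such stimulated cells: 4 labelled WT (D142, D150, D154 and D164) and 4 labelled CKO (D146, D149, D163 and D169). The labels name neither the gene deleted in CKO nor a Cre driver, and they give no age. No unstimulated group was part of the comparison, so the difference measured was between genotypes after activation.

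Many long noncoding RNAs stay in the nucleus. Malat1 gathers in nuclear speckles, the depots of splicing factors, and Neat1 is the RNA around which paraspeckle proteins assemble into paraspeckles. A snoRNA host gene is transcribed and spliced mainly to release the small nucleolar RNAs (snoRNAs) in its introns, which guide modification of ribosomal RNA, and the spliced remainder is often removed by nonsense-mediated decay. Kcnq1ot1 is an imprinted antisense RNA that silences neighbouring genes on the paternal chromosome. Mir155hg is the precursor of miR-155, a microRNA that Toll-like receptor ligands induce in dendritic cells and macrophages. The libraries were made from polyA RNA; the mature 3′ end of Malat1 and of the long Neat1 isoform carries no polyA tail, whereas the short Neat1 isoform does.

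Mir155hg lies on chromosome 16, 84703167 to 84715245 on the plus strand (mm10), and the miR-155 hairpin lies inside its exon at 84714053 to 84715245. The hairpin and the 2 mature arms cut from it are shown because the count of the host gene is read here as the precursor of this microRNA. In the hairpin the capitals mark the mature arms, and in each arm they mark the seed, bases 2 to 8, with which a microRNA pairs with its targets. The sequences are from RefSeq (GRCm38.p6), and the hairpin is chr16:84714140-84714204.
miR-155 hairpin: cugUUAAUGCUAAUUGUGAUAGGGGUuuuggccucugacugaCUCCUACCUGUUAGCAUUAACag
mmu-miR-155-5p: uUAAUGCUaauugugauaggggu
mmu-miR-155-3p: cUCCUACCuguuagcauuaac
Each of the 2 seeds was carried by 1 of the 1738 mature mouse miRNAs of the table, the arm itself.

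Across the 8 libraries, total counts ran from 25304765 to 40950088, and the 5 measured genes together held 0.0227% to 0.0755% of them. All 12 cDC markers looked for were detected in every library, among them Zbtb46 at 223 to 337 CPM (read counts adjusted for library size by TMM) and Flt3 at 92.7 to 139 CPM. The second principal component, with 19.04% of the variance, set CKO D149 apart. Some genes on the marker lists of other cells differed between the genotypes, and 7 of those tested were called, where 8.87% of all genes tested were. Tested were 8 markers of B cells, 7 of T cells, 6 of plasmacytoid dendritic cells, 7 of macrophages and 5 of erythroid cells. The 5 plasma cell and 6 NK cell markers tested gave no call. Ms4a1 from the B cell list, Cd4 and Trac from the T cell list and Ly6d from the plasmacytoid dendritic cell list rose. Bst2 of that list, the macrophage gene Spic and the erythroid gene Alas2 fell. Of the 7 T cell markers tested, 5 were not called. Log2 fold changes were positive for 5 of the 7 and negative for 2, Cd3e at -0.26 and Cd8b1 at -0.17. The summed CPM of the 8 T cell markers overlapped, at 34.1 to 60.5 in WT and 42.8 to 80.2 in CKO. The summed CPM of the 10 B cell markers was 26.1 to 50.9 in WT and 91.2, 130 and 102 in CKO D146, D163 and D169, but 27.4 in CKO D149, where Pax5 was at 0. The 8 macrophage markers summed to 94.7 to 144 CPM in WT and 38.2 to 83.2 in CKO, with none of them at 0, while the 6 neutrophil markers stayed at or under 1.55. Spic was the largest part of the macrophage sum, at 62.5 to 98.5 CPM in WT and 22.9 to 53.7 in CKO. All 7 macrophage markers tested had a negative log2 fold change, and 6 of them were not called. In such bulk samples fewer cells of a type and less RNA per cell cannot be told apart. Nor can it be told whether a listed gene, such as Cd4 or Bst2, was read from other cells or from the cDCs themselves.

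All 5 measured lncRNAs passed the filter on low counts, and none passed the test of a difference between the genotypes. With the quasi-likelihood F test of edgeR, Benjamini-Hochberg adjusted over 11702 genes, 0 of 5 had an adjusted p under 0.05, where 8.87% of all genes tested passed and 2.94% of the 408 lincRNA and antisense rows did. At an unadjusted p of 0.05 the count was also 0 of 5, as it was in DESeq2 and limma-voom. The share of all genes at that unadjusted threshold is not given here, so this count has no background beside it. By adjusted p, DESeq2 called 1966 of 18114 genes and limma-voom 1185 of 11702, and each called 0 of the 5. For each of the 5, the WT and CKO ranges overlapped; 15.9% of all genes had ranges that did not. The log2 fold changes, CKO over WT, had a median of 0.12 beside 0.031 for all genes tested.

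**Figure D1:**
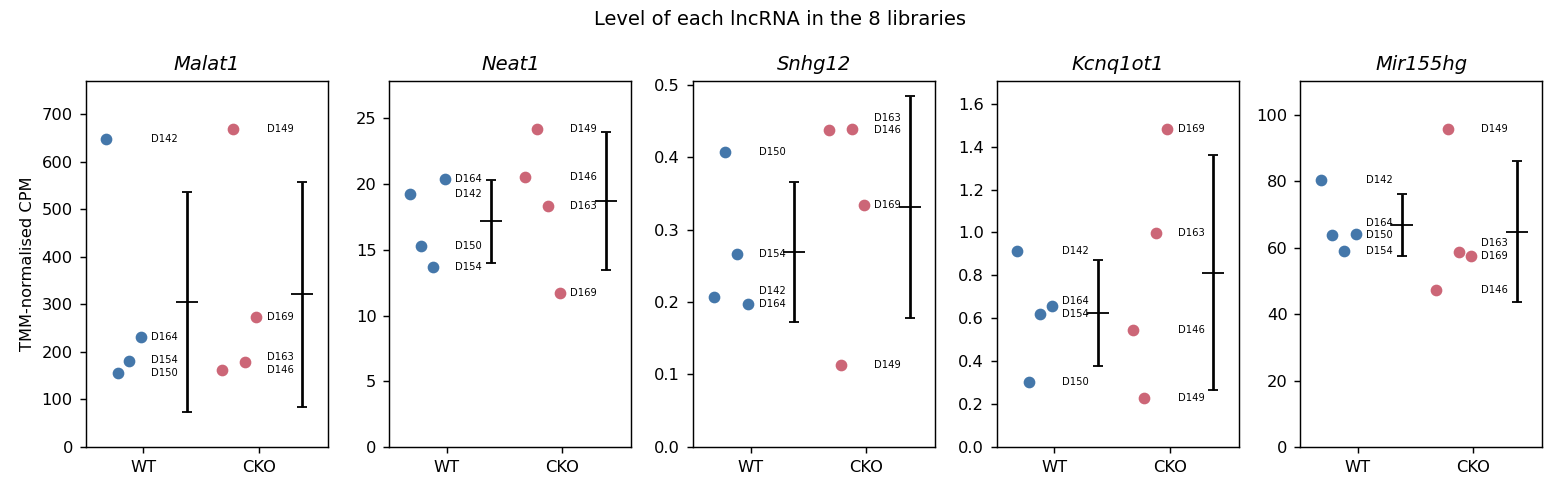
TMM-normalised CPM (linear axis from 0) of the 5 measured lncRNAs, 1 panel each, in 4 WT (blue) and 4 CKO (red) libraries; points are libraries with their names and the bars are the mean and SD. Malat1 is high in 1 library of each genotype, WT D142 at 648 and CKO D149 at 669, and the genotypes overlap in every panel.

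Malat1 (ENSMUSG00000092341; chromosome 19, 5795690 to 5802672 on the minus strand) is an RNA of 6983 bases and was the second most abundant lincRNA or antisense row, after AW112010. Its level was 648 CPM in WT D142, 157 in WT D150, 181 in WT D154 and 232 in WT D164, and 161 in CKO D146, 669 in CKO D149, 179 in CKO D163 and 273 in CKO D169. One library of each genotype thus stood far above the other three, and the remaining 6 ran together. The means were 304 ± 231 CPM in WT and 321 ± 238 CPM in CKO (SD, n = 4 each). The log2 fold change was 0.075 ± 0.52 (SE), with an adjusted p of 0.941 and a 95% interval of -1.07 to 1.22, so differences within that interval could not be told from 0. The estimate turned on those high libraries, at 0.76 without WT D142 and -0.58 without CKO D149. Malat1's biological coefficient of variation (the spread between libraries beyond counting) was 0.502 and ranked at the 97.2 percentile of all genes tested, whose median was 0.206. Counting error was small beside it, as the lowest library still held 5908 Malat1 reads. WT D142 and CKO D149 were also the libraries with the fewest genes detected, 14513 and 14161 against 14624 to 15399 in the others. Their total counts, 26307642 and 27702885, were the lowest after CKO D169, at 25304765 with 14624 genes detected. The part of depth and of genes detected in the Malat1 level was not tested.

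Neat1 (ENSMUSG00000092274; chromosome 19, 5824708 to 5845478 on the minus strand, 20771 bases) lies 22035 bases from Malat1. Its level was 19.3, 15.3, 13.7 and 20.4 CPM in WT D142, D150, D154 and D164, and 20.5, 24.2, 18.3 and 11.7 CPM in CKO D146, D149, D163 and D169. Both the highest and the lowest library were CKO. The means were 17.2 ± 3.17 and 18.7 ± 5.25 CPM (SD, n = 4 each). The log2 fold change was 0.12 ± 0.22 (SE), with an adjusted p of 0.746 and a 95% interval of -0.35 to 0.60. Neat1 varied between libraries about as the median gene did, with a coefficient of 0.227 at the 58.5 percentile. WT D142, the highest WT library for Malat1, was below WT D164 for Neat1.

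The ratio of the 2 neighbours within a library does not depend on the scaling between libraries. There were 33.6 Malat1 reads per Neat1 read in WT D142, 10.2 in WT D150, 13.2 in WT D154 and 11.4 in WT D164. In CKO D146, D149, D163 and D169 there were 7.87, 27.6, 9.76 and 23.3. CKO D169 thus joined the libraries with many Malat1 reads per Neat1 read; its Malat1 level of 273 CPM was the highest after the libraries WT D142 and CKO D149, and its Neat1 level of 11.7 CPM was the lowest of all. On the log2 scale the mean ratio of Neat1 to Malat1 was -3.92 (SD 0.79) for WT and -3.90 (SD 0.90) for CKO with n = 4 each, a difference of 0.016 that an exact two-sided permutation test over 70 arrangements put at p = 1, where 0.0286 is the smallest p it can give.

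**Figure D2:**
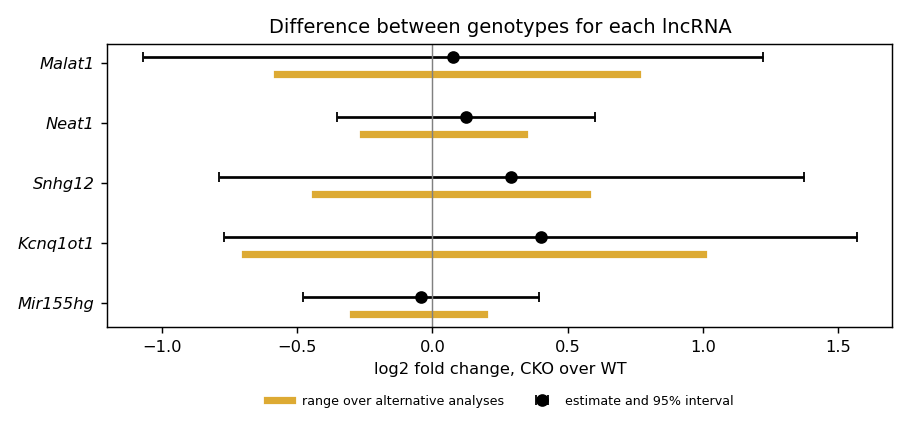
Log2 fold change, CKO over WT, of the 5 measured lncRNAs: black points and bars are the edgeR estimate and its 95% interval, and yellow bars are the range of the estimate over the alternative analyses. Every interval and every range spans 0; the Malat1 interval runs from -1.07 to 1.22 and that of Mir155hg from -0.48 to 0.39.

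Mir155hg (ENSMUSG00000097418) was read at 80.4, 63.7, 59.0 and 64.1 CPM in WT D142, D150, D154 and D164, and at 47.2, 95.9, 58.8 and 57.6 CPM in CKO D146, D149, D163 and D169. CKO held both the lowest and the highest library. CKO D149 was above every WT library, and CKO D146, D163 and D169 were below every WT library, D163 and D169 by little. The means were 66.8 ± 9.35 CPM in WT and 64.9 ± 21.3 CPM in CKO (SD, n = 4 each). The log2 fold change was -0.043 ± 0.20 (SE), with an adjusted p of 0.912 and a 95% interval of -0.48 to 0.39. With 1553 to 2537 reads per library, and a coefficient of variation of 0.208, close to the median gene, it was the most precisely measured of the 5. The edgeR estimate was -0.29 without CKO D149 (unadjusted p 0.066, adjusted p 0.189) and 0.083 without CKO D146. A count of the host gene measures the precursor transcript and not the mature miRNA.

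Kcnq1ot1 (ENSMUSG00000101609; chromosome 7, 143203458 to 143296549 on the minus strand) is an unspliced transcript of 93092 bases in the annotation. It had 22, 12, 21 and 20 counts in WT D142, D150, D154 and D164 and 20, 6, 34 and 40 in CKO D146, D149, D163 and D169. CKO again held both ends of the range, from 0.227 CPM in D149 (exact Poisson 95% interval 0.0832 to 0.493, counting error only) to 1.48 CPM in D169 (1.06 to 2.02). The means were 0.624 ± 0.249 and 0.813 ± 0.547 CPM (SD, n = 4 each), and the log2 fold change was 0.40 ± 0.53 (SE; adjusted p 0.659, 95% interval -0.77 to 1.57). Leaving out CKO D169 gave -0.042, and a covariate of B cell marker level gave -0.69. Kcnq1ot1 overlaps exons of the protein-coding Kcnq1 on the other strand; Kcnq1 had 0 counts in all 8 libraries.

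Snhg12 (ENSMUSG00000086290; chromosome 4, 132308623 to 132311024 on the plus strand) hosts the annotated snoRNAs Snora16a, Snora44, Snora61 and Snord99. It had 5, 16, 9 and 6 counts in WT D142, D150, D154 and D164 and 16, 3, 15 and 9 in CKO D146, D149, D163 and D169. At these counts the library with the most, 0.439 CPM (exact Poisson 95% interval 0.246 to 0.725), and the one with the least, 0.113 CPM (0.0234 to 0.331), had counting intervals that overlapped. The means were 0.269 ± 0.096 and 0.331 ± 0.153 CPM (SD, n = 4 each), with a log2 fold change of 0.29 ± 0.49 (SE; adjusted p 0.736, 95% interval -0.79 to 1.37). A difference within that interval could not be told from 0 with these counts and this spread, the coefficient of variation beyond counting being 0.363 (88.6 percentile). The snoRNAs themselves were not analysed here.

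Per kilobase of the length given in the table, Mir155hg and Malat1 were the highest of the 5, at 46.6 ± 6.52 and 43.6 ± 33.1 CPM per kilobase in WT and 45.3 ± 14.9 and 45.9 ± 34.0 in CKO (SD, n = 4 each). These neighbours in the order did not differ beyond their spread: Malat1 was above Mir155hg in WT D142 and CKO D149 and below it in the other 6 libraries. Neat1 followed at 0.826 ± 0.153 in WT and 0.900 ± 0.253 in CKO, then Snhg12 at 0.112 ± 0.040 and 0.138 ± 0.064. Kcnq1ot1 was last at 0.0067 ± 0.0027 and 0.0087 ± 0.0059 CPM per kilobase. The lowest library of Neat1, at 0.564, was above the highest of Snhg12, at 0.183, and the lowest of Snhg12, at 0.0472, was above the highest of Kcnq1ot1, at 0.0159. These values divide by the full length, 20771 bases for Neat1 and 93092 for Kcnq1ot1. The short Neat1 isoform, the one with a polyA tail, covers only part of that length. The order between genes thus rests on the lengths used.

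The genes whose levels followed Malat1, Neat1, Kcnq1ot1 and Mir155hg most closely from library to library were taken from the 8030 candidates that averaged 5 CPM or more (8031 for Kcnq1ot1), by the root mean square (RMS) difference of log2 CPM after centring on each gene's mean over the 8 libraries. They describe a shared profile and were given no test; Snhg12 was left out of this search. Nearest to Malat1 were Ms4a6c, which encodes a membrane protein of the MS4A family (RMS difference 0.29), Tsc22d1 (0.41) and Bdp1, a subunit of the RNA polymerase III factor TFIIIB (0.45). The median gene differed from Malat1 by 0.85. Ms4a6c was at 146.5 CPM in WT D142 and 162.5 in CKO D149 and between 53.3 and 69.3 CPM in the other 6, and was thus split as Malat1 was. Neat1 had closer company, with Stap1, which encodes an adaptor of tyrosine kinase signalling, at an RMS difference of 0.052, and Crebl2 and Zfc3h1 at 0.11 each, where the median gene differed by 0.41. Stap1 ran from 60.1 CPM in CKO D169 to 113 in CKO D149, the libraries that were also lowest and highest for Neat1. Nearest to Kcnq1ot1 were Ptprcap (0.35), Fbxo31 (0.41) and Syt11 (0.41), and nearest to Mir155hg were Amn1 (0.097), Mtif3 (0.12) and Pdcd10 (0.13). None of the 12 genes passed the test between genotypes, with adjusted p from 0.358 to 0.980 in edgeR. They were chosen for likeness, over these same libraries, to lncRNAs that did not pass. Their result was therefore largely set by the choice and is no separate evidence.

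**Figure D3:**
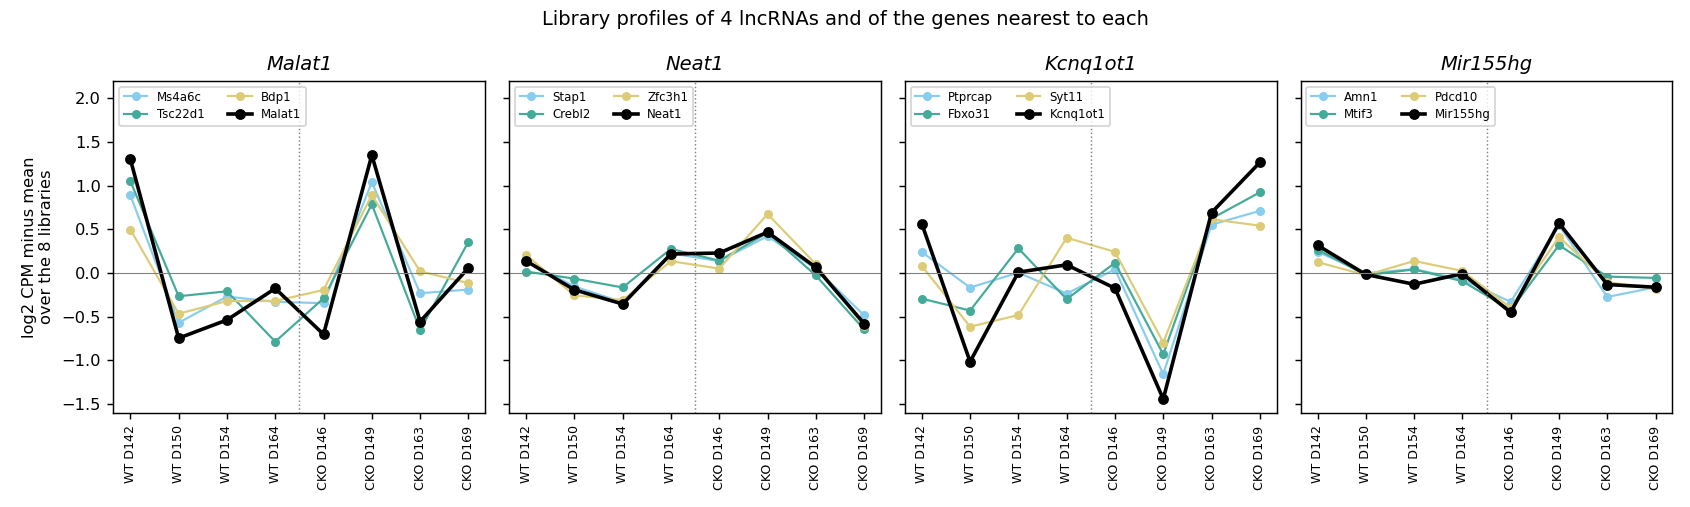
Log2 CPM minus its mean over the 8 libraries, for Malat1, Neat1, Kcnq1ot1 and Mir155hg (black) and the 3 genes nearest to each (colours), in 4 WT and 4 CKO libraries either side of the dotted line. Malat1 and Ms4a6c share peaks in WT D142 and CKO D149, and the RMS difference of Neat1 and Stap1 over the 8 libraries is 0.052.

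Among other lncRNAs and miRNA host genes, 1 of 10 tested rose and none fell, beside 4.30% of all genes higher and 4.57% lower. The gene that rose was 2900097C17Rik, known as Norad, a lncRNA that sequesters Pumilio proteins and guards chromosome stability. It was at 61.7, 81.2, 71.9 and 115 CPM in WT D142, D150, D154 and D164 and at 122, 113, 139 and 138 CPM in CKO D146, D149, D163 and D169. WT D164 reached into the CKO range and the other WT libraries did not. Its log2 fold change was 0.64 ± 0.18 (SE), with an adjusted p of 0.0452 in edgeR. Tug1, a nuclear lncRNA near it in abundance, went from 68.4 ± 20.3 to 91.8 ± 8.58 CPM (SD, n = 4 each; adjusted p 0.176), and Mir17hg, the host of the miR-17 to miR-92 cluster, from 2.08 ± 0.74 to 3.28 ± 0.77 CPM (adjusted p 0.169). The median log2 fold change of the list was 0.22, against 0.031 for all genes. Of 15 other snoRNA host lncRNAs, 7 had a row and 3 passed the filter on low counts, Snhg6, Snhg20 and Epb41l4aos, none of which passed the test. Snhg20, the one with the smallest p, was at 1.05 ± 0.33 CPM in WT and 1.42 ± 0.12 in CKO (SD, n = 4 each; adjusted p 0.395).

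The proteins that turn snoRNAs into working particles (snoRNPs) and their assembly factors were all measured. Of 19 genes, 1 rose and none fell, 17 had a positive log2 fold change and the median was 0.43. Of all 11702 genes tested, 4.30% were higher and 4.57% lower, 6205 had a positive log2 fold change and the median was 0.031. Nop58, a core protein of box C/D snoRNPs, which carry out ribosomal RNA methylation, was at 19.3, 16.6, 18 and 11.2 CPM in WT D142, D150, D154 and D164. In CKO D146, D149, D163 and D169 it was at 31.96, 30.3, 42.8 and 48.2 CPM. All CKO libraries lay above all WT libraries, and the log2 fold change was 1.24 ± 0.20 (SE), with an adjusted p of 0.0124 in edgeR. Its partner Nop56 was at 120 ± 14.4 in WT and 182 ± 63.0 CPM in CKO (adjusted p 0.0949), and Dkc1, the pseudouridine synthase of box H/ACA snoRNPs, at 27.2 ± 5.74 and 56.6 ± 26.6 CPM (SD, n = 4 each; adjusted p 0.0552). The assembly factors Znhit6 and Shq1 were at 7.82 ± 1.48 and 4.20 ± 0.71 CPM in WT and 12.1 ± 2.13 and 6.55 ± 0.88 CPM in CKO (SD, n = 4 each; adjusted p 0.0627 and 0.0651), and the ranges of Znhit6 did not overlap. These 4 genes were picked out after their values were seen. Nop56 and Dkc1 were lowest among the CKO libraries in D149, Nop56 at 113 and Dkc1 at 23.8 CPM, inside the WT range, and D149 was also the CKO library with the WT level of B cell markers. With the B cell marker level as a covariate the list's median was 0.021 and that of all genes -0.015, and Nop58 kept a log2 fold change of 0.96 (adjusted p 0.0412). B cell markers were above the WT range in CKO D146, D163 and D169, so the covariate largely followed genotype. D149 was also the library set apart on the second principal component. The part of B cell markers cannot be told apart from genotype here and was not tested. With total-count scaling, or after a correction for GC content and length, 6 of the 19 passed the test as higher in CKO. Of all 11702 genes, those settings called 1080 and 448 higher.

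Among 23 protein-coding genes that carry snoRNAs in their introns the median log2 fold change was -0.052. Beside 4.30% of all genes higher and 4.57% lower, none of the 23 rose and 1 fell. This was Rpl7a, a ribosomal protein gene, which fell from 11.9 ± 2.23 CPM to 6.57 ± 1.86 CPM (SD, n = 4 each; log2 fold change -0.85 ± 0.23 SE, adjusted p 0.0404). Its ranges touched, with CKO D163 at 9.23 CPM above WT D150 at 8.77, and ribosomal protein genes share sequence with many processed pseudogenes, so the count is uncertain. Of 17 factors of nonsense-mediated decay, Upf2 rose from 16.8 ± 3.89 to 29.2 ± 6.38 CPM and Smg9 fell from 22.6 ± 2.78 to 15.1 ± 2.69 CPM (SD, n = 4 each; adjusted p 0.0363 and 0.0467). Upf2 bridges Upf1 to the exon junction complex, and Smg9 is a regulatory subunit of the Smg1 kinase complex. The list thus held 1 gene higher and 1 lower, beside 4.30% of all genes higher and 4.57% lower. The median log2 fold change of the 17 was -0.093. It was 0.085 with total-count scaling, which moved the median of all genes from 0.031 to 0.19, and the median of the protein-coding hosts became 0.11.

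Of 17 paraspeckle proteins tested, the partners of Neat1, Tardbp rose and Dazap1 fell, beside 4.30% of all genes higher and 4.57% lower. The median log2 fold change of the 17 was 0.16. With total-count scaling 5 of the 17 were called higher and 1 lower, with a median of 0.33. That scaling called 1080 of all 11702 genes higher and 311 lower, with a median of 0.19. With RLE scaling none of the 17 was called higher and 1 lower, where 475 of all genes were higher and 587 lower. Tardbp, the RNA-binding protein TDP-43, was at 49.8 to 51.5 CPM in the 4 WT libraries and 58.0 to 76.5 CPM in the CKO libraries (log2 fold change 0.43 ± 0.12 SE, adjusted p 0.0444). Dazap1, an RNA-binding splicing regulator, was at 45.0 to 57.0 CPM in WT and 21.8 to 40.2 CPM in CKO (log2 fold change -0.90 ± 0.20 SE, adjusted p 0.0251). The core proteins Sfpq and Nono, which bind Neat1, were at 55.0 ± 2.23 and 521 ± 38.2 CPM in WT and 43.4 ± 8.80 and 451 ± 34.9 CPM in CKO (SD, n = 4 each; adjusted p 0.159 and 0.252). Pspc1 of the same list went the other way, with ranges that did not overlap. Its log2 fold change was 0.51 ± 0.15 (SE, adjusted p 0.0583 in edgeR). Among the 17, 11 log2 fold changes were positive and 6 negative. Sfpq, Nono, Pspc1, Tug1 and Mir17hg were picked out after their values were seen. Of 17 nuclear speckle proteins, the compartment of Malat1, 2 rose and none fell, beside the same shares of all genes, with a median of 0.054. Total-count scaling gave 4 higher and RLE scaling 1, beside 1080 and 475 of all 11702 genes. Sf3b1, a subunit of the U2 snRNP, rose from 211 ± 54.5 to 372 ± 43.8 CPM (adjusted p 0.0222) and Bclaf1 from 82.2 ± 12.9 to 115 ± 11.4 CPM (SD, n = 4 each; adjusted p 0.0495). After the correction for GC content and length the log2 fold changes of Tardbp, Bclaf1 and Smg9 were 0.17, 0.093 and -0.24 with no call. The calls of 2900097C17Rik and Rpl7a were also lost, at 0.54 and -0.74 (adjusted p 0.0513 and 0.0689 in edgeR). That of Sf3b1 was kept at 0.50. The medians of the paraspeckle and speckle lists turned to -0.085 and -0.14.

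**Figure D4:**
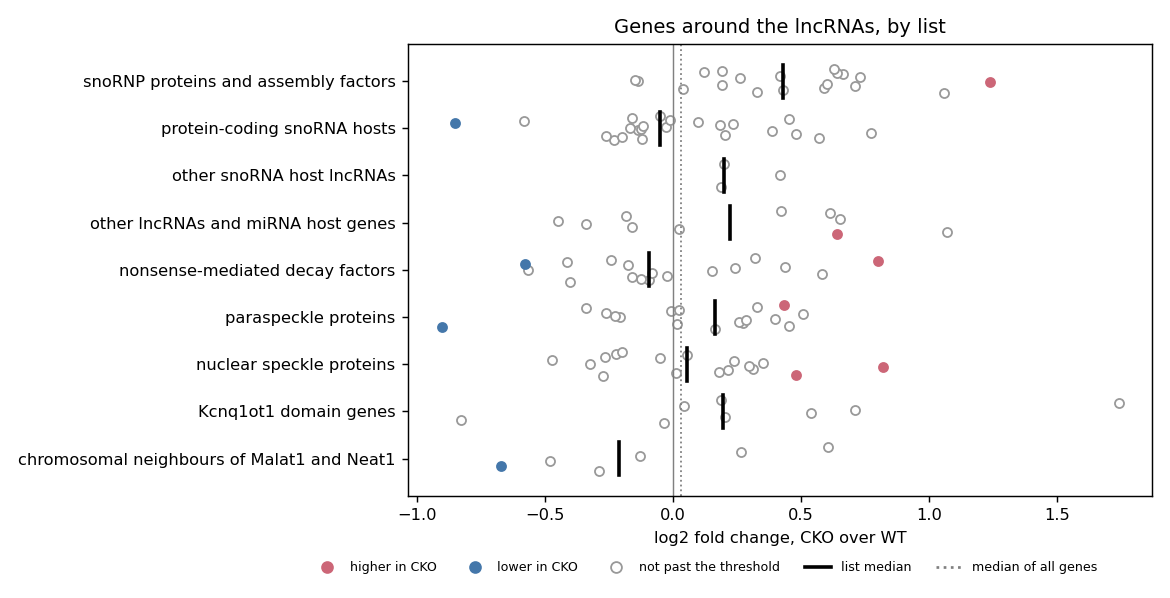
Log2 fold change, CKO over WT, of each tested gene in 9 lists around the lncRNAs; filled red and blue points passed the test as higher or lower in CKO, open points did not, black bars are list medians and the dotted line is the median of all genes, 0.031. Nop58 at 1.24 is the rightmost filled point, and the snoRNP list has the median farthest from that of all genes, 0.43.

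The genes beside the lncRNAs on their chromosomes gave 1 call, where 8.87% of all genes tested were called. Of 6 tested neighbours of Malat1 and Neat1, Ehbp1l1 fell from 305 ± 40.7 to 192 ± 56.8 CPM (SD, n = 4 each; log2 fold change -0.67 ± 0.19 SE, adjusted p 0.0466), with CKO D146 at 276 CPM inside the WT range. Of 8 tested genes around Kcnq1ot1, none passed, whereas 1 was called higher with total-count scaling and 1 after the correction for GC content and length. Those settings called 1080 and 448 of all 11702 genes higher. Tspan32, a tetraspanin gene of leukocytes and the one with the smallest p, had 0.975 ± 0.791 CPM in WT libraries and 3.18 ± 1.64 CPM in CKO libraries (adjusted p 0.0737). Cdkn1c, a cell cycle inhibitor and a known target of Kcnq1ot1 silencing, had 3.74 ± 1.43 CPM in WT libraries and 2.09 ± 0.29 CPM in CKO libraries (SD, n = 4 each; adjusted p 0.0958). Cdkn1c was also chosen after its values were seen. Of the 8 genes tested around Kcnq1ot1, 6 had a positive log2 fold change and 2 a negative one, with a median of 0.19. Phlda2 and Slc22a18 were among the positive ones, at 0.71 and 0.042 (adjusted p 0.385 and 0.954 in edgeR). Of all 11702 genes, 6205 were positive and the median was 0.031.

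Genes reported as targets of miR-155 were read beside the host gene of their regulator. Of 15 targets, 1 rose, none fell, 13 had a negative log2 fold change and the median was -0.27. Of all 11702 genes tested, 4.30% were higher, 4.57% were lower, 5497 had a negative log2 fold change and the median was 0.031. Inpp5d, which encodes the phosphatase SHIP1, a brake on PI3-kinase signalling, was at 6.26, 7.60, 7.80 and 8.88 CPM in WT D142, D150, D154 and D164. In CKO D146, D149, D163 and D169 it was at 15.8, 10.2, 14.3 and 12.5 CPM. Every CKO library was above every WT library, and the log2 fold change was 0.79 ± 0.18 (SE), with an adjusted p of 0.0286 in edgeR. Socs1, an inhibitor of cytokine signalling, was at 242 ± 36.8 CPM in WT and 204 ± 31.6 in CKO (adjusted p 0.289), and Spi1, the transcription factor PU.1, at 325 ± 64.5 and 254 ± 41.2 CPM (SD, n = 4 each; adjusted p 0.180). Bach1, a repressor of heme oxygenase, was at 6.92 ± 1.49 and 4.82 ± 0.83 CPM (adjusted p 0.144). Socs1, Spi1 and Bach1 were chosen as well-known targets with their values seen. With total-count scaling 12 of the 15 stayed negative and the median was -0.12, beside 0.19 for all genes. After the correction for GC content and length 11 were negative, 1 was called higher and 2 were called lower, and the median was -0.39. That correction called 448 of all 11702 genes higher and 630 lower, with a median of 0.015. The 8 macrophage markers were also lower in CKO as a sum, of which Spic was the largest part. The part of these markers in the levels of the targets was not tested.

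The 3′ UTRs of 12 of these 15 genes held the 7-base match to the miR-155-5p seed, AGCATTA, 14 matches in all, searched on the transcript strand of the longest GENCODE M21 3′ UTR of each gene. The sites of Inpp5d, which rose, and of 3 targets with lower means in CKO are shown to compare their surroundings; the capitals mark the match (mm10). Bach1 held 2 matches, of which the first is shown.
Inpp5d, chr1:87719822-87719847, plus strand: tgagatgtttttaaaaAGCATTAaag
Socs1, chr16:10784204-10784229, minus strand: gctgccgctgtgccgcAGCATTAagt
Spi1, chr2:91115421-91115446, plus strand: ggaccccgccggccatAGCATTAacc
Bach1, chr16:87732172-87732197, plus strand: tctctatgaacagtttAGCATTAagg
Of the 12 genes with a match, 10 had a lower mean in CKO. Across all genes tested, 1050 had the match in their 3′ UTR and 10158 had a 3′ UTR without it. Of those with it, 6.38% were higher and 3.14% lower in CKO, with a median log2 fold change of 0.13, against 4.16% higher, 4.87% lower and a median of 0.023 without it. The genes with a match had longer 3′ UTRs, with a median of 2726 bases against 1055, and the part of UTR length in this difference was not tested. A match is a description and shows no binding.

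**Figure D5:**
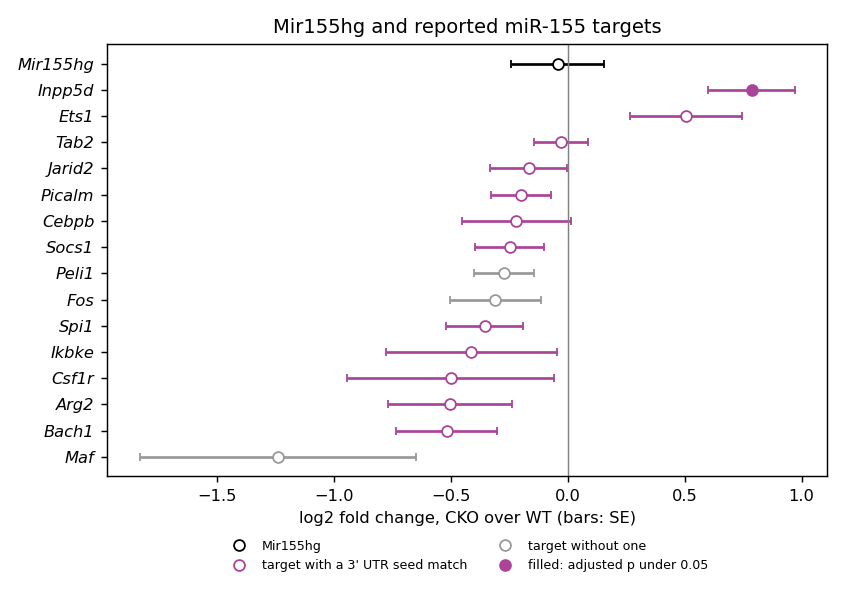
Log2 fold change, CKO over WT, with its SE, of Mir155hg (black) and of 15 reported miR-155 targets; purple marks the 12 genes with a seed match in the 3′ UTR, grey those without, and a filled point an adjusted p under 0.05. Mir155hg sits at -0.043, Inpp5d alone is filled, at 0.79, and 13 of the 15 targets lie left of 0.

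Of the 11 genes called in these lists, Nop58 alone passed in all 19 alternative analyses. The other 10 missed the threshold with the B cell marker covariate and when WT D142, WT D150, WT D154 or CKO D163 was left out, settings under which 344, 347, 82, 138 and 70 genes of all those tested were called in place of 1038. Over the alternatives the log2 fold change of Inpp5d stayed between 0.64 and 0.96, that of 2900097C17Rik between 0.52 and 0.86, that of Dazap1 between -1.16 and -0.66 and that of Upf2 between 0.66 and 0.96. It moved further for Bclaf1, from 0.093 to 0.64, for Tardbp, from 0.17 to 0.60, and for Smg9, from -0.71 to -0.24. Rpl7a, at -1.04 to -0.67, kept its call in 7 of the 19 alternatives and in 0 of the 8 that left out 1 library.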

How the data were processed

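RNA-seq counts of 8 libraries of sorted, CpG-B-stimulated spleen cDCs were analysed, 4 WT and 4 CKO by the genotype labels. The deposited table holds the authors' raw counts per gene, with position, strand and length per the file headers. Per the labels' protocols, polyA RNA was copied with a SMART-Seq low-input kit. HISAT2 2.2.1, fastp 0.23.2 and mm10 are named in the submitters' processing notes. How reads were assigned to genes, and whether by strand, is not stated there, so reads from overlapping genes of opposite strand cannot be separated. The labels do not say that libraries came from separate animals, so the spread behind each p-value may be technical. No batch is given, and no 2 libraries were copies (smallest chi-square per degree of freedom 34.6).

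The fit was edgeR 4.0.16 in R 4.3.3 (filterByExpr, TMM, robust dispersions, quasi-likelihood F test, Benjamini-Hochberg over 11702 genes, threshold 0.05). SE is the log2 fold change divided by the square root of F. CPM is TMM-normalised; log2 CPM used a prior count of 2. Alternatives were other scalings and filters, DESeq2 1.42.0, limma-voom (limma 3.58.1), a B cell marker covariate, a per-library spline offset (5 degrees of freedom) for GC content and length, and left-out libraries. Biotypes, exons and 3′ UTRs came from GENCODE M21. The genes described, the lists around them and the tests were chosen with earlier results of these data known. Named from each list were the genes past the threshold, up to 4 by p, or else the one with the smallest p; others are said to be chosen after their values were seen. Nearest genes leave out predicted genes and receptor segments.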

Additional observations from a re-analysis of the deposited data

Results flagged for a closer look

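Of 58 groups of 4 libraries examined, 9 held a library whose gap to its nearest neighbour, divided by the group's range, passed Dixon's 95% critical value; chance flags about 1 group in 20. Malat1 was flagged in WT D142, at 648 CPM. Ms4a6c was flagged in WT D142, at 146.5 CPM, and in CKO D149, at 162.5 CPM, and Bdp1 in the same libraries, at 12.9 and 17.002 CPM; both genes were picked for their likeness to Malat1, so their flags are not independent of it. Amn1, picked for its likeness to Mir155hg, was flagged in CKO D149, at 36.9 CPM, and Fbxo31, picked for its likeness to Kcnq1ot1, in WT D154, at 7.54 CPM. Dazap1 and Ehbp1l1, both lower in CKO, were flagged in CKO D146, at 40.2 and 276 CPM, the CKO library nearest to WT for each.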

How the results depend on the processing

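None of the 5 lncRNAs passed the threshold under any alternative run, the smallest adjusted p being 0.187 for Kcnq1ot1 without CKO D146 and D149; with a mean of at least 5 CPM as the filter only 3 of the 5 had a value. The sign of these small estimates was not stable, and the cause was not tested. Mir155hg was at 0.10 with total-count scaling and 0.19 with the B cell marker covariate, which put Snhg12 at -0.43 and Kcnq1ot1 at -0.69. Malat1 and Neat1 were at -0.20 and -0.26 after the GC and length offset and at -0.43 and -0.19 without CKO D146 and D149. Leaving out 1 library gave -0.58 to 0.76 for Malat1 (negative without WT D150, D154, D164 or CKO D149), -0.0245 to 0.29 for Neat1 (negative without CKO D149), -0.042 to 0.70 for Kcnq1ot1 (negative without CKO D169) and -0.29 to 0.083 for Mir155hg (positive without WT D142, CKO D146, D163 or D169). For the log2 Neat1 to Malat1 ratio it gave -0.37 to 0.31, negative without WT D142, CKO D146 or CKO D163.

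Over all genes, 1038 were called, 503 higher and 535 lower. Total-count scaling gave 1080 higher and 311 lower, DESeq2 1966 (950 higher, 1016 lower), the B cell marker covariate 344 (221 and 123), leaving out CKO D146 and D149 1777 (833 and 944) and a threshold of 0.10 2119 (1102 and 1017). Leaving out 1 library gave 70 to 1468 calls, 21 to 921 higher and 49 to 779 lower. No paired analysis was possible because the labels share no replicate number between the genotypes. Snhg12 and Kcnq1ot1 had 3 to 40 counts per library and coefficients of variation beyond counting of 0.363 and 0.479; how far depth and the spread between libraries each limit their estimates was not tested.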
